A study of Mus musculus with 16 samples.

Results

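The 8 genes described here encode enzymes of cholesterol synthesis: Hmgcs1, Idi1, Fdps, Fdft1, Sqle, Cyp51, Msmo1 and Sc5d. They were chosen by name, with earlier results of the same chips known. Every probe set whose gene symbol in the platform annotation is 1 of the 8 was taken, and all 8 were on the chip. They have 12 probe sets among the 12422 tested, and the annotation names 8251 genes by a single symbol. RNA from whole inner ears of COUP-TFI-/- and wild-type mice at P0, the day of birth, of strain 129SvEv, was hybridized to 8 Affymetrix MG-U74Av2 chips, 4 per genotype. COUP-TFI (gene Nr2f1) is an orphan nuclear receptor, and the allele removes it from every cell of the animal, with high mortality around birth. The RNA of dissected ears was pooled, so a chip does not measure a single ear. Chips carry a letter, A or B, read here as the hybridization set they were run in, and a number, 1 or 2, read as the repeat chip of the same RNA, and the sets differ in time and in the RNA used. There were thus 2 RNA pools per genotype, and the duplicates repeat the array and not the animals. Each chip was deposited with 2 normalizations: GCRMA, on a log2 scale, and dChip, an intensity on a linear scale.

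Cholesterol is built from acetyl-CoA. Hmgcs1 joins the first carbons into HMG-CoA on the way to mevalonate, Idi1 and Fdps turn the resulting isoprenoid units into farnesyl diphosphate, Fdft1 and Sqle make squalene and its epoxide, and Cyp51, Msmo1 and Sc5d trim and desaturate the sterol ring after its closure. Cells raise transcription of these genes together when membrane sterol falls, through the SREBP transcription factors. Myelinating Schwann cells, sensory cells with dense membranes and growing tissue all draw on this pathway.

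In COUP-TFI-/- inner ears the 8 genes, each by its brightest probe set (the highest mean GCRMA value), had GCRMA values below wild-type in 8 of 8 cases, with differences between -0.42 and -0.12 and a median of -0.27 on the log2 scale. The smallest of the 8, those of Fdps and Fdft1, came close to 0 when a single wild-type chip was left out. The median was -0.27 within set A and -0.29 within set B. Over all probe sets tested, 49.7% were lower in COUP-TFI-/- and the median difference was 7.65e-04. The 8 were named with earlier results of these chips known, so this contrast describes them and is no test. With dChip values 7 of the 8 genes were lower, the median was again -0.27, and Fdft1 was the exception at 0.01. The same chips underlie both normalizations, so the second is not an independent measurement. Hmgcs1, Msmo1, Sc5d and Sqle had the largest differences, equal to GCRMA levels 19.9% to 25.2% lower in COUP-TFI-/-. No member passed limma's adjusted p of 0.05 in the test on pool means blocked by set, which 13 probe sets or 0.105% passed with GCRMA, and 1 or 0.00805% with dChip.

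**Figure D1:**
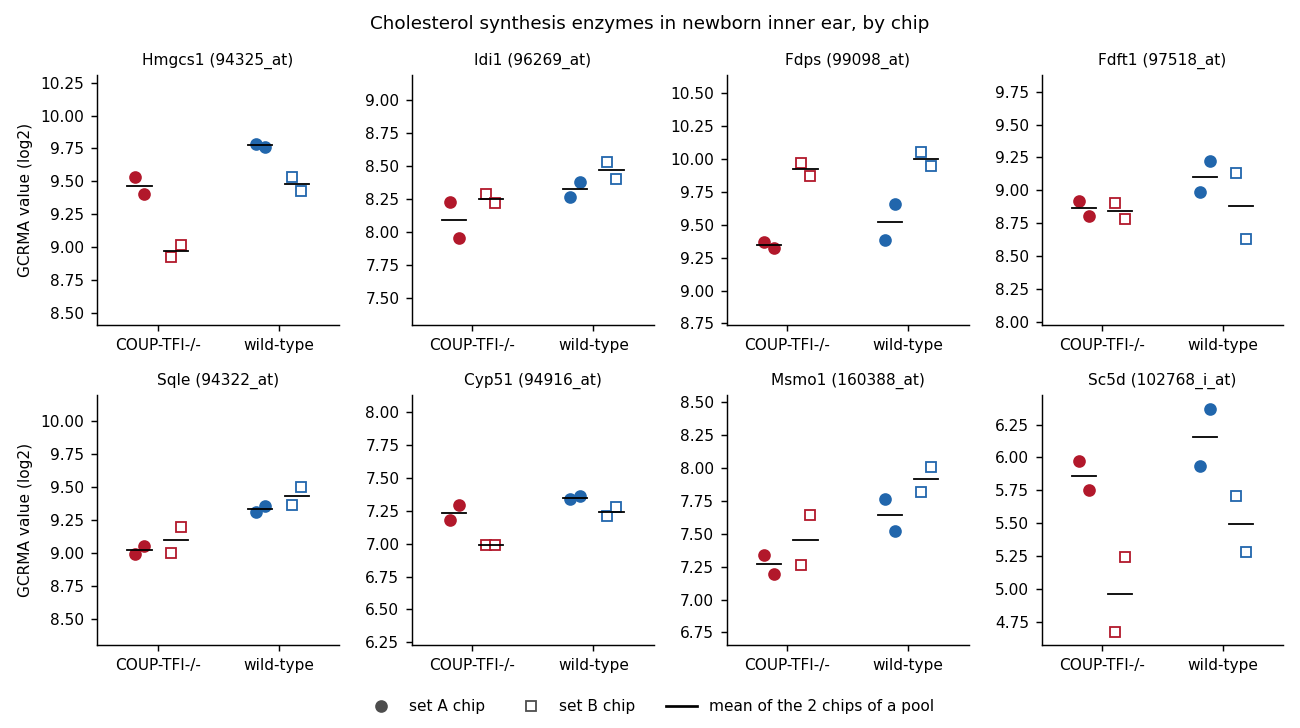
GCRMA value (log2) of each enzyme on each chip, by its brightest probe set, with COUP-TFI-/- left and wild-type right in each panel. Filled circles are set A chips, open squares set B chips and bars the mean of the 2 chips of a pool. Every vertical axis spans the same log2 range. Within each set the Hmgcs1, Idi1, Sqle, Cyp51 and Msmo1 points of COUP-TFI-/- lie under those of wild-type, and only for Sqle are the 4 COUP-TFI-/- chips all under the 4 wild-type chips. How many of all probe sets are apart across both sets was not counted.

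Hmgcs1, Msmo1 and Sc5d had the largest differences, and the start regions of their genes are shown because all 3 belong to the group that SREBP factors are known to control. The sequences are RefSeq promoter windows of GRCm38.p6, 5′ to 3′ on the strand of the gene, from 250 bases before the annotated start to 50 after it. Capitals mark TCACNNCA and TCACNCCAC (a loose and a strict spelling of the sterol regulatory element), CCAAT (the NF-Y box) and AGGTCA (the core motif of nuclear receptors, COUP-TFs included), each searched on both strands, so that ATTGG and TGACCT are matches on the opposite strand. In Msmo1 the second CCAAT and the second TCACNNCA share their T.
Hmgcs1, chr13:119690101-119690400, plus strand: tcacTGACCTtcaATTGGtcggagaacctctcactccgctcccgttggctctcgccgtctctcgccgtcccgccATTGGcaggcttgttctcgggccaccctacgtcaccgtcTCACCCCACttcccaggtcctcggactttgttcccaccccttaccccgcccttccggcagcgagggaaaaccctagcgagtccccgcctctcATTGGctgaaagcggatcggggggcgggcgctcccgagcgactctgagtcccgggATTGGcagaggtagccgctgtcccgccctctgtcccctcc
Msmo1, chr8:64733529-64733828, minus strand: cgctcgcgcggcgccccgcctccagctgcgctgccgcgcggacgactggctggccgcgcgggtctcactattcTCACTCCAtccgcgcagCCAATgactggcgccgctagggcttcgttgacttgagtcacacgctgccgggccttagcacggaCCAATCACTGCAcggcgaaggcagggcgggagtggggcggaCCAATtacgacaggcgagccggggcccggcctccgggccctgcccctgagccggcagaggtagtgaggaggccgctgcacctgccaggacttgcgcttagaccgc
Sc5d, chr9:42264251-42264550, minus strand: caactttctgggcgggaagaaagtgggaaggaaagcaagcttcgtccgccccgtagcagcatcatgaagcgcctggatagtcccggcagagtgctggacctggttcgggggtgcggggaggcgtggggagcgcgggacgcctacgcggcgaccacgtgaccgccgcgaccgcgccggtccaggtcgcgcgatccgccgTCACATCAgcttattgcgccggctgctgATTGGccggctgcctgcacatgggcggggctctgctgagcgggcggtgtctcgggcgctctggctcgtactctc

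Windows of 5 of the 8 members were in the RefSeq table (Hmgcs1, Idi1, Cyp51, Msmo1 and Sc5d), and 32851 windows of the same length were searched. The strict spelling TCACNCCAC was in 1.24% of all windows and in 1 of the 5, Hmgcs1, where TCACCCCAC begins 137 bases before the start. Every match of the strict spelling is also a match of TCACNNCA, which was in 13.8% of windows and in 4 of the 5, all but Idi1. CCAAT (37.4% of windows) and GGGCGG, the GC box that Sp proteins bind (35.7% of windows), were in all 5. AGGTCA was in 16.3% of windows and in 1 of the 5, Hmgcs1, on the opposite strand 246 bases before the start. A match is a run of letters and was not measured as a bound site.

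Hmgcs1 is the cytosolic HMG-CoA synthase, the entry step of the pathway. Its probe set 94325_at read 9.54, 9.40, 8.93 and 9.02 (GCRMA, log2; A1, A2, B1, B2) in COUP-TFI-/- inner ears, against 9.79, 9.76, 9.54 and 9.43 in wild-type. Within each set both COUP-TFI-/- chips were below both wild-type chips, and the groups met only where COUP-TFI-/- of set A faced wild-type of set B. The difference was -0.41 ± 0.10 (SE, 2 pools per genotype), a level 24.6% lower, with a limma adjusted p of 0.304. The dChip intensity was 994, 951, 764 and 881 in COUP-TFI-/- and 1152, 1159, 1348 and 1318 in wild-type, so that with dChip all 4 COUP-TFI-/- chips were below all 4 wild-type chips. On the log2 scale the dChip difference was -0.47 ± 0.14, with -0.25 for set A and -0.70 for set B.

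Idi1 interconverts the isopentenyl and dimethylallyl diphosphates from which isoprenoid chains grow. Probe set 96269_at read 8.23, 7.95, 8.29 and 8.22 (GCRMA, log2) in COUP-TFI-/- and 8.27, 8.38, 8.53 and 8.41 in wild-type. The genotypes did not overlap within a set, although the highest COUP-TFI-/- chip (B1) lay just above the lowest wild-type chip (A1). The difference of -0.22 ± 0.10 was nearly equal in set A (-0.23) and set B (-0.21), with a limma adjusted p of 0.980. In dChip intensity Idi1 had 264, 227, 305 and 285 in COUP-TFI-/-, against 288, 276, 419 and 342 in wild-type, a log2 difference of -0.28.

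Fdps makes farnesyl diphosphate, the last intermediate shared with protein prenylation, and the chip has 4 probe sets for it that did not behave alike. The brightest, 99098_at, read 9.37, 9.32, 9.97 and 9.87 (GCRMA, log2) in COUP-TFI-/- and 9.38, 9.65, 10.05 and 9.95 in wild-type. The genotypes were apart in set A by a narrow margin and overlapped in set B, and the difference was -0.12 ± 0.10 (limma adjusted p = 1.00). Without wild-type replicate A2 it was -0.06 with GCRMA, and with dChip -0.02 in place of -0.09. Probe set 160424_f_at gave -0.19, with -0.31 for set A and -0.07 for set B. The suffixes f and r mark probe sets that did not meet all of the manufacturer's selection rules.

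The 2 dim Fdps probe sets differed from each other in sign. Probe set 162281_at read 5.67, 5.66, 5.67 and 5.45 (GCRMA, log2) in COUP-TFI-/- and 5.42, 5.46, 5.49 and 5.45 in wild-type, and was the only member probe set with a higher mean in COUP-TFI-/- under GCRMA, by 0.16 ± 0.10 (limma adjusted p = 1.00). Chips A1, A2 and B1 of COUP-TFI-/- were above every wild-type chip, and B2 was level with the wild-type chips. Probe set 162217_r_at had GCRMA values from 3.78 to 3.95 in COUP-TFI-/- and from 3.86 to 4.13 in wild-type, where the lowest values on the chips were 2.73 to 2.89. It differed by -0.05 with GCRMA, and with dChip by 0.27 for set A and -0.66 for set B. The 4 probe sets of Fdps therefore have no single direction in these data. Its 2 bright probe sets were lower in both sets with both normalizations, and neither passed the adjusted p.

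Fdft1, squalene synthase, commits farnesyl diphosphate to sterols. Probe set 97518_at read 8.92, 8.81, 8.90 and 8.78 (GCRMA, log2) in COUP-TFI-/-, against 8.99, 9.22, 9.14 and 8.63 in wild-type. Set A separated the genotypes, while in set B the wild-type duplicates lay on both sides of the COUP-TFI-/- chips and differed by 0.51 between themselves. The GCRMA difference was -0.14 ± 0.10 (limma adjusted p = 1.00), and these wild-type chips decided its size, since it was -0.01 without wild-type replicate B1 and -0.27 without B2. With dChip the intensity was 811, 789, 885 and 901 in COUP-TFI-/- and 957, 924, 761 and 730 in wild-type, lower in set A by a log2 difference of -0.23 and higher in set B by 0.26. The 2 sets thus went opposite ways with dChip, and the interaction of genotype and set in the fit of the 8 chips had a limma adjusted p of 0.0607.

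Sqle, squalene epoxidase, adds the oxygen that starts ring closure and is a rate-limiting step. Probe set 94322_at read 8.99, 9.05, 9.0 and 9.20 (GCRMA, log2) in COUP-TFI-/- and 9.31, 9.36, 9.36 and 9.50 in wild-type. This was the only member probe set of the 12 whose 4 COUP-TFI-/- chips were all below all 4 wild-type chips with GCRMA. The share of all probe sets separated in this way across both sets was not counted, with GCRMA or dChip. The difference of -0.32 ± 0.10 was alike in set A (-0.31) and set B (-0.33) and equals a level 19.9% lower, with a limma adjusted p of 0.603. With dChip the intensity was 488, 524, 532 and 604 in COUP-TFI-/- and 577, 650, 658 and 674 in wild-type, a log2 difference of -0.26, and the highest COUP-TFI-/- chip overlapped the lowest wild-type chip of the other set.

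Cyp51 removes the first methyl group from lanosterol. Probe set 94916_at read 7.18, 7.29, 6.99 and 6.99 (GCRMA, log2) in COUP-TFI-/-, against 7.34, 7.36, 7.21 and 7.28 in wild-type. Within each set COUP-TFI-/- was lower on both chips, and the set A chips of COUP-TFI-/- reached into the range of the set B chips of wild-type. The difference was -0.18 ± 0.10 with GCRMA (limma adjusted p = 1.00). Intensities from dChip were 340, 358, 264 and 291 in COUP-TFI-/- and 384, 426, 323 and 363 in wild-type, with a log2 difference of -0.26.

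Msmo1, the methylsterol monooxygenase that removes further methyl groups, had the largest GCRMA difference of the 8 genes. Probe set 160388_at read 7.34, 7.19, 7.26 and 7.64 (GCRMA, log2) in COUP-TFI-/- and 7.76, 7.52, 7.82 and 8.01 in wild-type. The B2 chip of COUP-TFI-/- was above the A2 chip of wild-type, but within a set the genotypes did not overlap. The difference was -0.42 ± 0.10, with -0.38 for set A and -0.46 for set B, and equals a level 25.2% lower (limma adjusted p = 0.222). With dChip, 425, 446, 537 and 674 in COUP-TFI-/- stood against 621, 581, 702 and 865 in wild-type, which is also a log2 difference of -0.42. Over both sets and both normalizations the differences of this gene lay between -0.46 and -0.37.

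Sc5d desaturates the sterol ring near the end of the pathway and has 2 probe sets, both dim. Probe set 102768_i_at read 5.97, 5.75, 4.68 and 5.25 (GCRMA, log2) in COUP-TFI-/-, against 5.94, 6.37, 5.71 and 5.28 in wild-type. The genotypes overlapped in set A but not in set B. The difference was -0.41 ± 0.10 (limma adjusted p = 0.304), although duplicate chips of 1 pool differed by up to 0.57. With 1 chip left out in turn the difference ranged from -0.56 (without COUP-TFI-/- replicate B2) to -0.27 (without COUP-TFI-/- replicate B1). The adjusted p was 0.0174 without wild-type replicate A1 and above 0.05 without any of the other chips. Intensities from dChip were 98.5, 81.3, 33.3 and 49.3 in COUP-TFI-/- and 94.3, 126, 74.2 and 63.7 in wild-type, a log2 difference of -0.52.

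The other Sc5d probe set, 102769_f_at, read 4.80, 4.71, 4.24 and 4.37 (GCRMA, log2) in COUP-TFI-/- and 5.11, 5.15, 4.84 and 4.60 in wild-type. Within each set the COUP-TFI-/- chips were lower, and its difference of -0.39 ± 0.10 (limma adjusted p = 0.304) was close to that of 102768_i_at. With dChip it gave only -0.12, with -0.03 for set A and -0.21 for set B. The size of its difference therefore depended on the normalization. Its dChip intensity was 246, 208, 200 and 211 in COUP-TFI-/- and 233, 230, 260 and 215 in wild-type. That was above the dChip intensity of 102768_i_at on every chip. The values for the 8 genes used 102768_i_at, the brighter of the 2 by GCRMA.

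**Figure D2:**
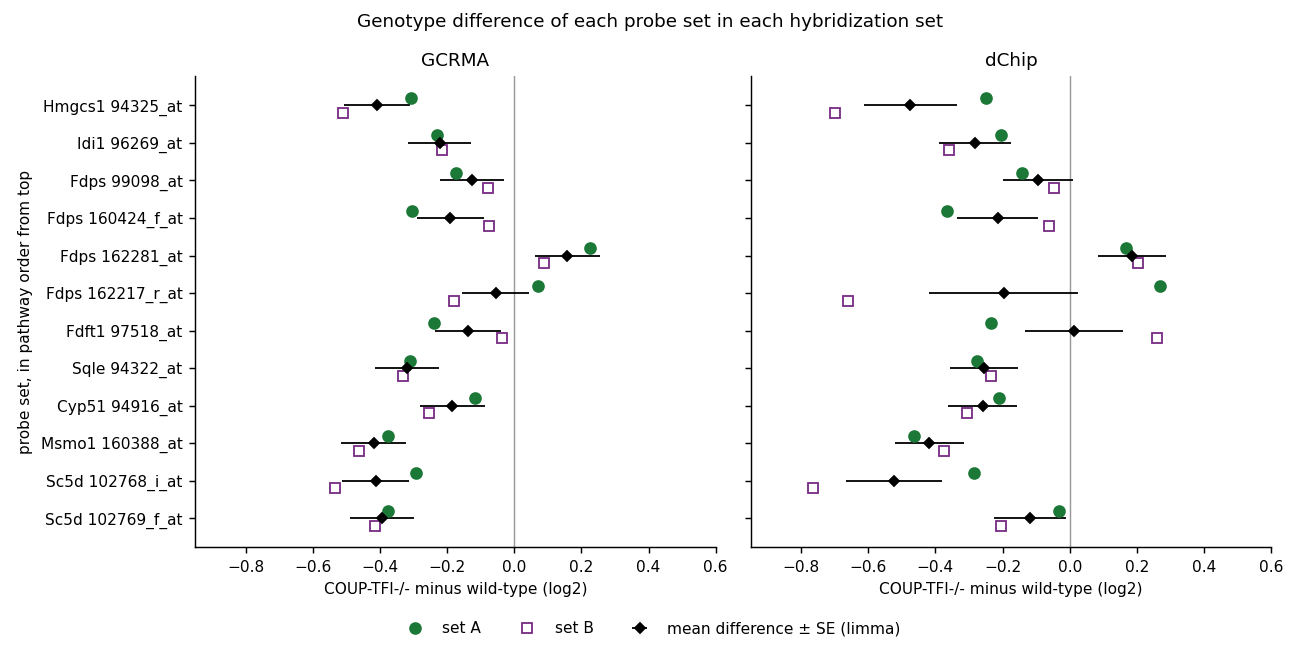
Genotype difference (COUP-TFI-/- minus wild-type, log2) of the 12 probe sets in pathway order from the top, with GCRMA left and dChip right. Filled circles are set A, open squares set B and diamonds with bars the mean difference ± SE from limma. With GCRMA 11 of 12 means lie below 0, and with dChip 10 of 12. The widest gaps between sets are those of Fdps 162217_r_at and Fdft1 with dChip.

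Counted over the 12 probe sets, 6 (5 genes: Hmgcs1, Idi1, Sqle, Msmo1 and both of Sc5d) were lower at an unadjusted limma p under 0.05 with GCRMA, against 1.97% of all probe sets. With dChip 6 probe sets of 6 genes did so, Cyp51 in place of 1 of the Sc5d pair, against 1.14%. Lower in both sets and in both normalizations were 9 of the 12 (7 genes, all but Fdft1), against 10.4% of all probe sets. Every COUP-TFI-/- chip was under every wild-type chip within each set for 6 of the 12 with GCRMA, against 3.65%, and for 5 with dChip, against 4.06%. In the limma fit of the 8 chips with an interaction term, 7 of the 12 were lower in COUP-TFI-/- at p under 0.01 for genotype, with p over 0.01 for the interaction, in GCRMA, against 1.58%, and 5 with dChip, against 1.45%. Hmgcs1 was not among the 5, since its dChip interaction p was under 0.01. These shares describe the members, which were named with earlier results of the same chips known.

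**Figure D3:**
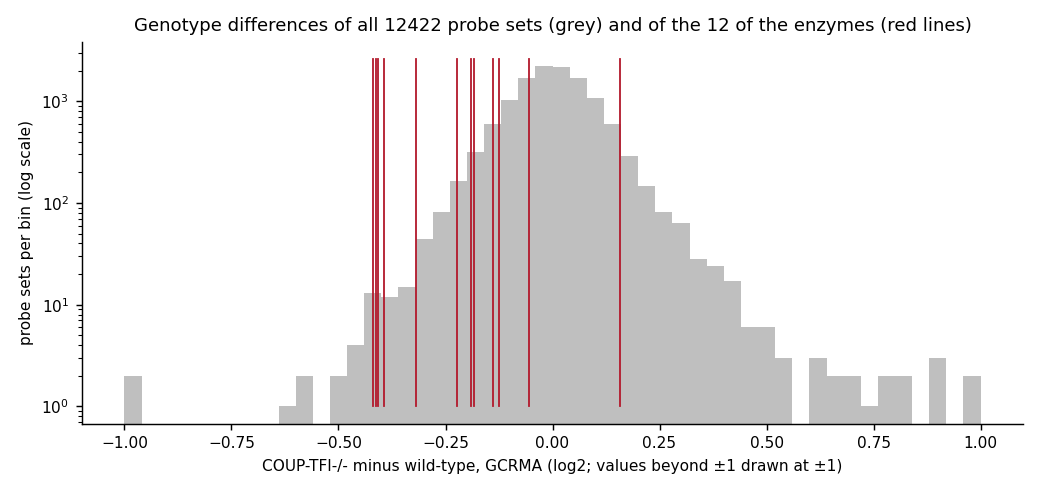
Histogram of the GCRMA genotype differences (COUP-TFI-/- minus wild-type, log2) of the 12422 probe sets tested, in grey, with the number of probe sets per bin on a log scale. Red lines are the 12 probe sets of the enzymes, 11 of which lie below 0, between -0.42 and -0.05, and 1 at 0.16. Values beyond 1 in size are drawn at the edge.

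How many of these enzymes passed the adjusted p depended on what was counted as a replicate and on which probe sets were tested. When only the 6211 probe sets at or above the median level were tested, 7 member probe sets were among them and 2 passed, Hmgcs1 (adjusted p = 0.0305) and Msmo1 (0.0227), where 0.612% of those tested passed. When the 8 chips were treated as replicates, 4 of the 12 passed, against 1.28%: Hmgcs1 (0.00613), Sc5d 102769_f_at (0.0153), Sqle (0.0371) and Msmo1 (0.0471). With the pool as a random block, Hmgcs1 (0.0285) and Sc5d 102769_f_at (0.0389) passed, against 0.217%. The fit of 8 chips rests on the spread between duplicate chips of the same RNA. In the random-block fit the estimated correlation between chips of a pool was 0.00724 with GCRMA. That fit therefore also counted duplicate chips as nearly independent. With 2 pools against 2, no exact permutation test over pools can reach a p under 0.05.

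With GCRMA the difference between hybridization sets was larger than that between genotypes for the 2 bright Fdps probe sets and both Sc5d probe sets. The dim Fdps probe sets had smaller set than genotype differences, 0.04 against 0.16 (162281_at) and -0.002 against -0.05 (162217_r_at). With dChip Sc5d 102769_f_at had 0.06 for the set and -0.12 for genotype. Sc5d 102768_i_at was higher in set A than in set B by 0.78 (GCRMA, log2; limma, adjusted p = 5.1e-05), Sc5d 102769_f_at by 0.43 (0.00389) and Hmgcs1 by 0.39 (0.00849), close in size to its genotype difference. Fdps went the other way, by -0.53 for 99098_at (0.000935) and -0.61 for 160424_f_at (0.000398). These 5 of the 12 passed for the set, against 25.8% of all probe sets, and with dChip 3 passed, both Fdps probe sets and Sc5d 102768_i_at, against 11.7%. For Hmgcs1 the dChip set difference was only 0.02. Time of hybridization and RNA pool cannot be told apart in this difference. For the interaction of genotype and set, fitted on the 8 chips, 0 of the 12 passed limma's adjusted p with GCRMA, where 0.958% of all did, and 0 had an unadjusted p under 0.05. With dChip 1 passed, Fdps 162217_r_at, against 0.459%.

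**Figure D4:**
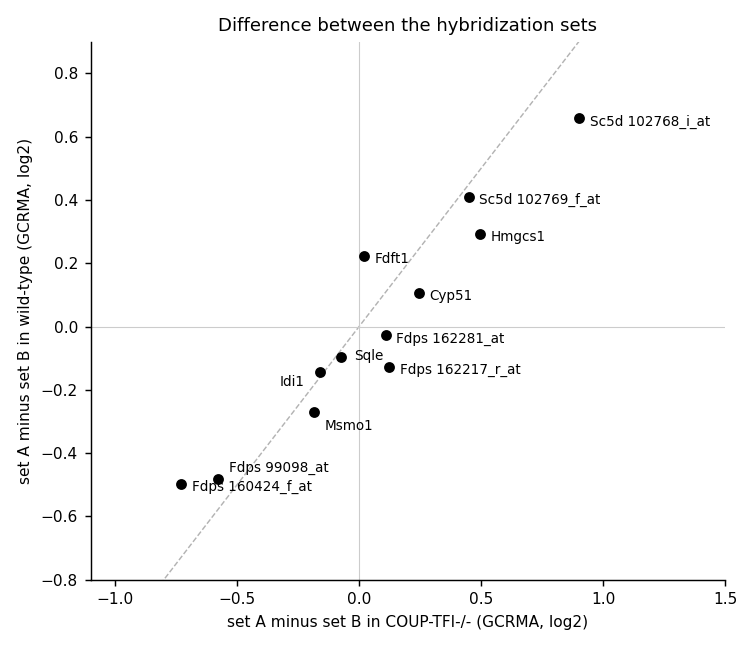
Set A minus set B of the 12 probe sets (GCRMA, log2), in COUP-TFI-/- on the horizontal axis and in wild-type on the vertical axis, with the line of equality dashed. Sc5d and Hmgcs1 were higher in set A in both genotypes, and the bright Fdps probe sets were higher in set B in both.

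The 8 profiles were only loosely alike over the 8 chips. Pearson's r between pairs of members ranged from -0.60 to 0.91 over 28 pairs, with a median of 0.34 and 23 pairs above 0, and the chips share pools, sets and genotype. The mean of the 8 centred GCRMA profiles was -0.05, -0.15, -0.24 and -0.12 in COUP-TFI-/- and 0.10, 0.21, 0.18 and 0.07 in wild-type. No COUP-TFI-/- chip reached a wild-type chip in that mean. Each of the 8 was lower in COUP-TFI-/- with GCRMA and was named with earlier results of these chips known. The separation of their mean follows from this and is no test. Among 8117 other genes the profiles nearest to this mean by Pearson's r over the 8 chips were those of Tyro3 (0.986), Psmb5 (0.968), Dcun1d5 (0.964), Rbm8a (0.947) and Calb2 (0.934). The same genes had r of 0.685, 0.936, 0.402, 0.790 and 0.762 with dChip values, so Tyro3 and above all Dcun1d5 were less close there.

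Other genes of lipid synthesis were taken from lists of pathway members. Of 13 further cholesterol synthesis enzymes 9 were on the chip with a single symbol. With GCRMA 6 were lower and 3 higher, the median was -0.03, and 0 passed limma's adjusted p or an unadjusted p of 0.05, with GCRMA or dChip. Hsd17b7, a sterol ketoreductase, had the largest of these differences, -0.18 with GCRMA, which was -0.08 without COUP-TFI-/- replicate B1, and -0.03 with dChip. Tm7sf2, a sterol reductase, had 0.09, and 0.03 without wild-type replicate A2. Lss, which closes the sterol ring between the steps of Sqle and Cyp51, had -0.09. Mvd, which makes isopentenyl diphosphate, had -0.05. Dhcr7, which acts on the product of Sc5d, had 0.02. Lss, Mvd and Dhcr7 were thus within 1 SE of 0. With dChip the largest difference of the 9 was that of Mvk, 0.20, with 0.14 for set A and 0.26 for set B. With GCRMA Mvk had -5.3e-04.

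Sterol sensing and SREBP processing had 4 of 10 listed genes on the chip. With GCRMA 1 was lower and 3 were higher, whereas with dChip 3 were lower. With either normalization 0 passed the adjusted p or an unadjusted p of 0.05. Srebf1, which encodes an SREBP itself, differed by 0.06 with GCRMA and -0.01 with dChip, and Insig1, which retains SREBPs when sterol is plentiful, by -0.06 and -0.24. The dChip difference of Insig1 was 0.06 for set A and -0.54 for set B, and its probe set was dim, with a mean GCRMA value of 4.17. Of 16 genes of fatty acid synthesis and desaturation 12 were on the chip. With GCRMA 9 of them were lower, with a median of -0.08, and with dChip 6, with a median of -0.03. With either normalization 0 passed the adjusted p. Only Acsl4, an acyl-CoA synthetase, and Slc25a1, which exports citrate for acetyl-CoA, were lower at an unadjusted limma p under 0.05 with GCRMA, each by a difference of -0.23 and each with an adjusted p of 0.977. Without COUP-TFI-/- replicate B1 Acsl4 gave -0.10. With dChip neither was, at 0.02 for Acsl4 and -0.19 for Slc25a1. The isoprenoid branches after farnesyl diphosphate had 7 of 10 genes on the chip. With GCRMA 4 were lower and 3 higher, with dChip 5 were lower, and 0 passed the adjusted or an unadjusted p of 0.05. Fntb, a subunit of farnesyltransferase, differed by 0.14 with GCRMA and Rce1, a protease of prenylated proteins, by 0.05.

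**Figure D5:**
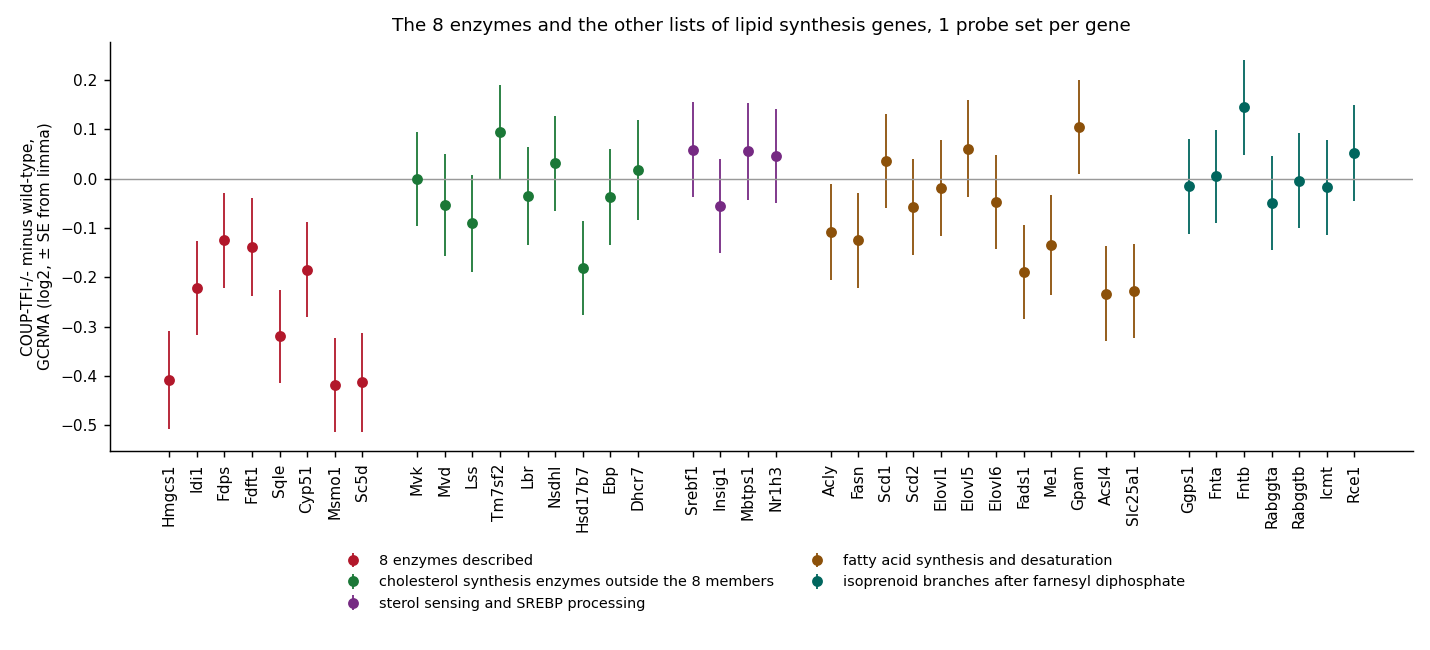
Genotype difference (COUP-TFI-/- minus wild-type, GCRMA, log2, ± SE from limma) of the 8 enzymes, in pathway order at the left, and of the 4 other lists, each gene by its brightest probe set. The 8 enzymes lie between -0.42 and -0.12, and the 9 other cholesterol enzymes between -0.18 and 0.09. Members and lists were chosen with earlier results of these data known, so the contrast is descriptive.

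The genotype labels were checked on Nr2f1, which read 4.68 to 5.27 in COUP-TFI-/- and 7.74 to 8.83 in wild-type (GCRMA, log2), a difference of -3.37 (limma, adjusted p = 5.90e-11). Every chip matched its label, and where the probe set lies relative to the deleted part was not looked up. Values of duplicate chips correlated at 0.996 to 0.997 over all probe sets (GCRMA) and chips of different sets at 0.979 to 0.987. Of 21 inner ear epithelium markers listed, 17 were on the chip, and the lowest of their mean GCRMA values was 6.71, where the chip medians were 7.20 to 7.23.

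Of the marker genes of the tissues that the dissection could hold, Fabp7, Ucp1, Myh3 and Myh8 passed limma's adjusted p for genotype with GCRMA. With dChip 0 of the markers passed. Marker counts and differences are from GCRMA unless dChip is named, and sums are of dChip intensities. In bulk RNA, fewer cells of a type and less RNA per cell cannot be told apart. Of the 17 inner ear markers 13 were lower in COUP-TFI-/-, 0 past the adjusted p (4 lower at an unadjusted limma p under 0.05 and none higher), with summed dChip intensities of 15175 to 15180 in COUP-TFI-/- and 16323 to 16633 in wild-type for set A, and 12904 to 13185 in COUP-TFI-/- and 13614 to 14074 in wild-type for set B. Schwann cell and myelin markers (9 of 12 on the chip) were lower for 6, with a median of -0.01 (-0.02 with dChip). Fabp7 passed at -0.58, and no other had an unadjusted limma p under 0.05. The sums of these markers were 9722 to 10508 in COUP-TFI-/- and 10558 to 11267 in wild-type. They include Fabp7, which the study reported as a direct COUP-TFI target. Neuron markers (10 of 10) were lower for 8, none past the adjusted p or an unadjusted p of 0.05, at sums of 7130 to 8870 in COUP-TFI-/- and 7259 to 9649 in wild-type. The lowest mean GCRMA value was 5.41 among the Schwann cell markers and 5.95 among the neuron markers. Their part in the enzyme differences was not tested.

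Fat markers (7 of 9 on the chip) were lower for 6, with a median of -0.27 with GCRMA and -0.12 with dChip. Lower at an unadjusted limma p under 0.05 were 4 with GCRMA and 1 with dChip. Ucp1, the heat-producing protein of brown fat, passed the adjusted p at -1.26 with GCRMA. For set A the fat markers summed to 1893 to 2000 in COUP-TFI-/- and 2190 to 2338 in wild-type. For set B they summed to 1641 to 1726 in COUP-TFI-/- and 1847 to 1935 in wild-type. All 10 striated muscle markers on the chip (of 11) were higher in the mean over the sets, but only 5 of them were higher in both sets. Myh3 at 0.80 and Myh8 at 0.98 passed the adjusted p (0.49 and 0.56 within set A). The 10 muscle markers summed to 21188 to 22117 in COUP-TFI-/- and 22833 to 23063 in wild-type for set A. For set B their sums were 25182 to 26888 in COUP-TFI-/- and 14547 to 14579 in wild-type. Macrophage markers (9 of 10) were higher for 8, with 3 at an unadjusted limma p under 0.05 and 0 past the adjusted p, and summed to 5806 to 6371 in COUP-TFI-/- and 5232 to 5687 in wild-type. Of the cartilage, bone, erythroid, neutrophil and melanocyte markers 0 passed limma's adjusted p, and at an unadjusted p under 0.05 were 2 cartilage markers and 1 neutrophil marker, all higher. What fat, muscle and macrophage content contributed to the enzyme values was not tested.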

How the data were processed

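RNA pools of whole inner ears were hybridized to 8 Affymetrix MG-U74Av2 chips. The authors deposited each chip as log2 values from GCRMA and as model-based intensity from dChip, so background correction and summarization are theirs, and software versions are not given in the sources used here. No counts exist, and the number of pools limits precision. Leaving out the 66 Affymetrix controls among 12488 probe sets gave 12422 tested (GCRMA) and 12421 (dChip). A floor of 1 was set for dChip, which 89 values met, before taking log2.

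Duplicate chips were averaged, and the 4 pools were fitted with limma 3.58.1 in R 4.3.3 (statmod 1.5.0 for the random block) by genotype with the set as a block, 2-sided, with Benjamini-Hochberg adjustment over all probe sets. Residual degrees of freedom were 1, and limma's prior added 14.3 (GCRMA) and 4.55 (dChip). The letter of a chip label was read as the set. The set pairs the pools by the study's methods, and set differences correlated between genotypes at r = 0.752 (GCRMA) and 0.688 (dChip).

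Every probe set of the members is reported. Of each other list, genes at an unadjusted p under 0.05 with GCRMA are named, else the 2 largest, each by its brightest probe set, plus the 5 genes of nearest profile. Lss, Mvd, Mvk and Dhcr7 and the markers were named after their values were seen. Members and lists were chosen with earlier results of these data known. Alternatives were other scalings and filters, a dChip floor of 16, other designs, each chip left out and each set alone.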

Additional observations from a re-analysis of the deposited data

Results flagged for a closer look

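A chip stood apart from the other 3 of its genotype in 3 of 48 groups of 4 chips checked by the gap to the nearest chip over the range, where chance gives about 1 in 20, or 2.4 of 48. That rate is for independent chips. Here the 4 chips are duplicates from 2 pools, and the 48 groups hold the same chips in both normalizations, so the rate is only a rough guide. COUP-TFI-/- replicate B2 was low for Fdps 162281_at, at 5.45 with GCRMA and at an intensity of 223 with dChip. Wild-type replicate B2 was high for Fdps 162217_r_at, at 4.13 with GCRMA. All 3 belong to the dim Fdps probe sets, and the bright ones had none.

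The genotype difference of Fdps 162217_r_at with dChip had opposite signs in the 2 sets, 0.27 in set A and -0.66 in set B. These lie 0.93 apart on the log2 scale (limma interaction on the 8 chips, adjusted p = 0.0465). The intensity of this probe set was 21.2, 25.3, 13.4 and 15.1 in COUP-TFI-/- and 19.1, 19.4, 22.8 and 22.2 in wild-type (A1, A2, B1, B2). That test rests on duplicate chips of single pools.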

How the results depend on the processing

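Over the alternatives, the genotype differences of the 12 member probe sets gave 386 values with a test, of which 374 kept their direction and their side of the threshold, 2 turned sign and 10 newly passed. In 1 set alone, with no test, 3 of 48 turned sign. The sign turned for Fdps 162217_r_at, to 0.0703 in set A alone with GCRMA and 0.27 with dChip, and over chips left out it ranged from -0.12 to 0.00892 (0.00892 without wild-type replicate B2). It also turned for Fdft1 with dChip, to -0.23 in set A alone, and over chips left out it ranged from -0.00108 (without wild-type replicate B2) to 0.0288. Of the other genes, Insig1 ranged from -0.15 to 0.0377 (0.0377 without COUP-TFI-/- replicate B2), and Rce1 gave -0.0241 in set A alone. With dChip values Srebf1 gave -0.0134, Acsl4 0.0185, Rce1 -5.43e-05 and the set difference of Fdps 162217_r_at 0.24.

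The count of member probe sets past the adjusted p, 0 in GCRMA, was 2 with only the brighter probe sets tested, 4 with the 8 chips as replicates, 2 with the pool as a random block and 0 to 1 over chips left out (1 without wild-type replicate A1). With dChip it was 1 with the 8 chips as replicates, Hmgcs1 (adjusted p = 0.0240). Without the set as a block, the paired design was lost, and member probe sets lower at an unadjusted p under 0.05 numbered 2 in place of 6 with GCRMA and 1 in place of 6 with dChip. Over all probe sets, 13 passed with GCRMA, and this was 2 with quantile normalization, 38 with the brighter probe sets, 0 without the block (38 at an unadjusted p under 0.05), 159 with 8 chips, 27 with the random block, 1 with the 2-way analysis of variance, and 1 to 54 over chips left out. With dChip 1 passed, and this was 3 with quantile normalization, 8 with the brighter probe sets, 0 without the block (36 at an unadjusted p under 0.05), 67 with 8 chips and 5 with the random block, 4 with trend and robust settings, 0 with a floor of 16 (191 at an unadjusted p under 0.05) and 1 to 5 over chips left out. The causes were not tested.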
